A study of Mus musculus with 4 samples.

Results

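Genes of reactive gliosis and retinal stress were followed in mouse retina after inhibition of the microRNA miR-124-3p. They are Gfap, Vim, Nes, Lcn2, Serpina3n, Cp, Timp1, Cd44, Edn2 and Fgf2, which were taken by symbol from the deposited table as 10 of its 48897 genes. They were named as genes of reactive Müller glia and astrocytes and of stressed photoreceptors, and no measured value was part of the choice rule. The libraries came from retinas of C57BL/6 mice without a genetic change. In the anti-miR-124 group, left eyes received 0.6 nmol of an antagomir, a modified antisense oligonucleotide against miR-124-3p, in 1 μl into the vitreous at postnatal day 3. In the NC group, right eyes received a scrambled sequence. Both were taken at postnatal day 9, which was 6 days after injection, and retinas were pooled in each library. Each group had 2 RNA-Seq libraries, and no uninjected retina was among the 4. All anti-miR-124 libraries came from left eyes, so the oligonucleotide and the side of the body cannot be told apart. Left-eye and right-eye libraries carry shared numbers in the deposited table, of which there are 2. The libraries of 1 number are named NC-A and anti-A here, and those of the other NC-B and anti-B, as pair A and pair B.

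Müller glia span the whole retina and keep its ions, transmitters and water in balance, and astrocytes lie along its inner surface. After injury or light damage these cells become reactive. They add intermediate filaments to their skeleton, secrete acute-phase proteins and change the matrix around them. Stressed photoreceptors release endothelin 2, the product of Edn2, which acts on the receptor Ednrb of Müller glia, and Fgf2 is a survival factor for photoreceptors. Gfap is low in resting Müller glia and is the usual marker of their reactive state, while retinal astrocytes express it also at rest.

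The libraries held between 16317239 and 18726963 counts on genes. The retina markers were in place, since the 10 rod and cone genes summed to between 8696 and 9943 TPM and the 12 genes of resting Müller glia to between 2693 and 3337 TPM. NC-A stood apart by its lens genes, with 64958 TPM summed over 19 of them against 129 to 182 TPM in the other libraries. Red blood cell genes were highest in anti-A, with a sum of 1595 TPM against 404 to 746 TPM elsewhere. TPM is counts per length of the gene, scaled to the same total in every library. It is used here to compare genes with each other and to sum gene lists. The lens transcripts take part of that total in NC-A, so such sums compare libraries only roughly. Single genes were compared between libraries by CPM with TMM scaling, which the lens transcripts affect less. CPM is counts relative to the library's total on a 1000000 basis. The difference between the groups was tested with edgeR's quasi-likelihood test for the 17766 genes past its filter on low counts, which 9 of the 10 genes passed and Edn2 did not. These p-values measure only the spread between the 4 libraries, and for a single value an exact two-sided permutation test of 2 against 2 libraries cannot go below 0.333.

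The promoters of 3 of the genes are shown first. Gfap is the marker by which gliosis is read, and Lcn2 and Serpina3n were 6.11-fold and 30.5-fold higher in anti-B than in anti-A. Fgf2, at 31.2-fold, and Edn2, with 25 counts against 0, were further apart than Lcn2. Their windows, which hold none of the motifs searched, are not shown. Each is the RefSeq sequence of GRCm38.p6, 5′ to 3′ on the strand of the gene, from 250 bases before to 50 bases after the annotated start. Gfap lies on the minus strand (window chr11:102897151-102897450), Lcn2 on the minus strand (chr2:32387690-32387989) and Serpina3n on the plus strand (chr12:104406458-104406757). Capitals mark a match to the STAT motif in Gfap and to a C/EBP motif in Lcn2. No letters are in capitals in Serpina3n, where none of the motifs searched was found.
Gfap: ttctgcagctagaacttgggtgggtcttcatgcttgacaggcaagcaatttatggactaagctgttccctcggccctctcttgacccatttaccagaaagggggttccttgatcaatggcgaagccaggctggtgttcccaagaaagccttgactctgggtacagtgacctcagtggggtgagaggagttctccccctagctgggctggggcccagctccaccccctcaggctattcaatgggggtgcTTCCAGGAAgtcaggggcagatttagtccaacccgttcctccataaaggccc
Lcn2: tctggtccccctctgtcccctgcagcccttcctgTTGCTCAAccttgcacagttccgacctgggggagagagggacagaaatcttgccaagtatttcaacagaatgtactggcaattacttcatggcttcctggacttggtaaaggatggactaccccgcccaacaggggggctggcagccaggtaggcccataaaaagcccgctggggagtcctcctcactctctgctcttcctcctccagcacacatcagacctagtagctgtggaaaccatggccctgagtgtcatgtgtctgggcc
Serpina3n: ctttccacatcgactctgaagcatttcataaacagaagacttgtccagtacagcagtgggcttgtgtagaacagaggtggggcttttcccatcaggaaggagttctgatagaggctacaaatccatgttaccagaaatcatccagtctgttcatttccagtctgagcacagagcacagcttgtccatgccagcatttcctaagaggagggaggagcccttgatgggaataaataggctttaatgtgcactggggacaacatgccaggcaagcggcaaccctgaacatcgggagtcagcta

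STAT factors carry the signal of the gp130 cytokines, AP-1 that of cell stress, and C/EBP factors drive acute-phase genes. The STAT motif TTCNNNGAA, the AP-1 motif TGANTCA and the C/EBP motif TTGCNNAA were searched on both strands of 11 windows, as Cp has 2 annotated starts. The first 2 motifs read the same on both strands, and such a site counts once. STAT was found in the Gfap window alone among them, across the annotated start, while 8.30% of 32851 promoter windows of the same length hold it. AP-1 was found only at the first start of Cp, and in 7.81% of all windows. C/EBP was found in Lcn2 and at the second start of Cp, and in 10.8% of all windows. No match of 1 motif overlapped a match of another in these genes. A match is a run of letters and was not tested as a binding site.

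Gfap, the filament protein of astrocytes and reactive Müller glia, differed in opposite directions in the 2 pairs. The gene lies on chromosome 11 (GRCm38, 102887336 to 102897200). It had 1496 counts in NC-A, 720 in anti-A, 631 in NC-B and 3764 in anti-B. In CPM these were 92.9 and 42.2, then 34.9 and 199.7. Anti-B was the highest, NC-A was second, and the other two were low, so that the groups overlapped. The ratio of the anti-miR-124 to the NC library was 0.454 in pair A (95% counting interval 0.415 to 0.497) and 5.71 in pair B (5.25 to 6.23). Such an interval is exact for the counts of 1 library against 1 and covers counting error only, not the spread between retinas, and it carries no p-value. The NC libraries themselves differed, with 2.66-fold more Gfap in pair A than in pair B (2.42 to 2.92). The group means were 63.9 ± 41.0 CPM (SD, n = 2) in the NC group and 120.9 ± 111.4 CPM (SD, n = 2) in the anti-miR-124 group. The log2 fold change over all libraries was 0.92 (standard error 0.71). Without anti-B it was -0.59. The adjusted p of Gfap in the quasi-likelihood test of edgeR, by Benjamini-Hochberg over all genes tested, was 0.989. The gene lies opposite to a long noncoding RNA that had 36 to 54 counts.

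Vim encodes vimentin, the filament protein that Müller glia hold at rest, on chromosome 2 (13574311 to 13582826). It had the highest level of the 10 genes per length, with a mean of 492 TPM. Its counts were 5101 in NC-A, 3758 in anti-A, 3713 in NC-B and 7082 in anti-B. The order of the libraries was the same as for Gfap, over a smaller range. The ratio was 0.695 in pair A (95% counting interval 0.666 to 0.725) and 1.83 in pair B (1.76 to 1.90). The highest library, anti-B, was only 1.19-fold above NC-A. The log2 fold change was 0.19 (standard error 0.28).

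Nes encodes nestin, a filament protein of neural progenitors and of immature glia, on chromosome 3 (87971093 to 87980451). Unlike Gfap and Vim, its counts were nearly level, with 939 in NC-A, 1035 in anti-A, 956 in NC-B and 964 in anti-B. Both within-pair intervals held 1, from 0.951 to 1.14 in pair A and from 0.882 to 1.06 in pair B. The log2 fold change was 0.0065 (standard error 0.10). Nes was the only one of the 10 genes that was not highest in anti-B. It was lowest there, at 51.1 CPM against 52.9 to 60.6 CPM in the other libraries.

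**Figure D1:**
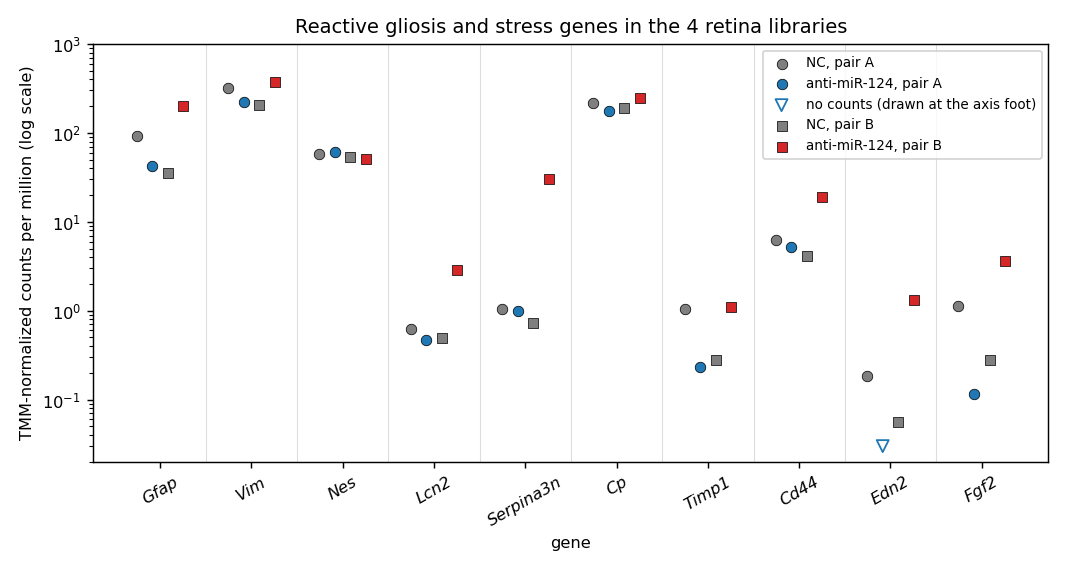
TMM-normalized CPM (log axis) of the 10 genes in each of the 4 libraries, with grey for NC, blue and red for anti-miR-124, circles for pair A and squares for pair B. Anti-B is the highest for 9 genes, all but Nes, and Edn2 has no counts in anti-A.

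Of the secreted acute-phase genes, Serpina3n differed most. It encodes a serine protease inhibitor that reactive astrocytes make, on chromosome 12 (104406698 to 104414334). It had 17 counts in NC-A, 17 in anti-A, 13 in NC-B and 572 in anti-B. Anti-B was thus at 30.3 CPM and the other 3 libraries at 0.720 to 1.06 CPM. The ratio was 0.943 in pair A (95% counting interval 0.453 to 1.97) and 42.1 in pair B (24.5 to 79.6). The NC mean was 0.888 ± 0.237 CPM (SD, n = 2), and the anti-miR-124 mean of 15.7 ± 20.8 CPM (SD, n = 2) had a spread larger than itself. Serpina3n was the only one of the genes with an unadjusted p under 0.05 in the edgeR fit, where its log2 fold change was 4.15 (standard error 1.40). The adjusted p from that fit was 0.989. Without anti-B the log2 fold change was 0.18. The Serpina3 cluster holds near copies of this gene that could share its reads, and how such reads were counted is not given in the sources used here. The 9 other genes of the cluster held at most 5 counts in a library, and Serpina3a, Serpina3f, Serpina3k and Serpina3m held none.

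Lcn2 encodes lipocalin 2, which binds iron-carrying siderophores and is made by reactive glia and by neutrophils, on chromosome 2 (32384637 to 32387739). It had 10 counts in NC-A, 8 in anti-A, 9 in NC-B and 54 in anti-B. Anti-B was above the others, which did not differ beyond counting error. The ratio was 0.755 in pair A (95% counting interval 0.259 to 2.12) and 5.75 in pair B (2.81 to 13.2). The log2 fold change was 1.59 (standard error 0.81) and -0.24 without anti-B. None of 10 neutrophil genes passed the filter. Their summed level was between 0.637 and 0.807 CPM, from few counts in each library. Ly6g, Mpo and Elane had no counts in any library. S100a8 and Cxcr2 were highest in anti-B, each with 4 counts. S100a9, Ngp, Camp, Ltf and Retnlg had at most 1 count there and up to 5 elsewhere. The part of neutrophils in the Lcn2 counts was not tested.

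Cp encodes ceruloplasmin, a copper-carrying ferroxidase through which iron leaves glia, on chromosome 3 (19956985 to 20009750). It was the second highest of the genes per length, with a mean of 92.7 TPM, and it varied little. Its counts were 3476 in NC-A, 3028 in anti-A, 3438 in NC-B and 4689 in anti-B. The ratios of 0.822 (95% counting interval 0.782 to 0.863) and 1.31 (1.25 to 1.37) were on opposite sides of 1, as for Gfap and Vim. The log2 fold change was 0.07 (standard error 0.16). Cp overlaps Hps3 on the opposite strand over 13806 bases. Hps3 had 604 to 732 counts, and whether the counting used strand is not given in the sources used here.

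The matrix genes Timp1 and Cd44 were also highest in anti-B and second in NC-A, at different depth. Timp1, an inhibitor of matrix metalloproteinases on chromosome X (20870166 to 20874737), had 17 counts in NC-A, 4 in anti-A, 5 in NC-B and 21 in anti-B. The highest library of each group was at the same level within counting error, with 1.11 CPM in anti-B and 1.06 CPM in NC-A (ratio 1.06, 95% counting interval 0.530 to 2.13). Within the pairs the ratio was 0.222 (0.0543 to 0.681) in pair A and 4.02 (1.48 to 13.7) in pair B. The log2 fold change was 0.07 (standard error 0.84), with -1.45 without anti-B and 1.28 without NC-A. Timp1 lies wholly within Syn1, on its opposite strand, and Syn1 had 1708 to 2212 counts. The part of Syn1 reads in the Timp1 counts was not tested.

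Cd44 encodes the receptor of hyaluronan and osteopontin, on chromosome 2 (102811141 to 102901669), and marks the outer processes of Müller glia as well as immune cells. Its counts were 101 in NC-A, 88 in anti-A, 75 in NC-B and 363 in anti-B. Anti-B stood above all others, at 19.3 CPM against 4.15 to 6.27 CPM. The ratio was 0.822 in pair A (95% counting interval 0.611 to 1.105) and 4.64 in pair B (3.61 to 6.03). The log2 fold change was 1.24 (standard error 0.57) and -0.0066 without anti-B. Its adjusted p in the edgeR fit was 0.989.

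The stress ligands Edn2 and Fgf2 had few counts, and Edn2 the fewest of the 10 genes. Edn2, on chromosome 4 (120161206 to 120167360), had 3 counts in NC-A, none in anti-A, 1 in NC-B and 25 in anti-B. No counts of 17150849 allows a level of up to 0.176 CPM, from a limit of 3 counts. The ratio in pair B was 23.9, with a wide 95% counting interval from 3.92 to 983. Set against anti-A at its limit of 3 counts, the level in anti-B was 7.55-fold higher, and the 95% counting interval of 25 against 0 counts began at 5.70. Anti-B was 7.12-fold above NC-A (2.17 to 36.8). No ratio is given for pair A, where both libraries were at or under 3 counts.

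Fgf2, on chromosome 3 (37348477 to 37404893), had 18 counts in NC-A, 2 in anti-A, 5 in NC-B and 69 in anti-B. It had the largest opposite differences of the genes. The ratio was 0.105 in pair A (95% counting interval 0.0118 to 0.438) and 13.2 in pair B (5.40 to 42.0). The group means were 0.697 ± 0.594 CPM (SD, n = 2) in the NC group and 1.89 ± 2.51 CPM (SD, n = 2) in the anti-miR-124 group. The log2 fold change was 1.48 (standard error 1.21) and -2.47 without anti-B. Fgf2os, which overlaps the start of Fgf2 on the opposite strand over 2557 bases, had its counts in the same order, with 31 in NC-A, 17 in anti-A, 19 in NC-B and 49 in anti-B. Reads of the 2 genes cannot be told apart there if strand was not used.

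**Figure D2:**
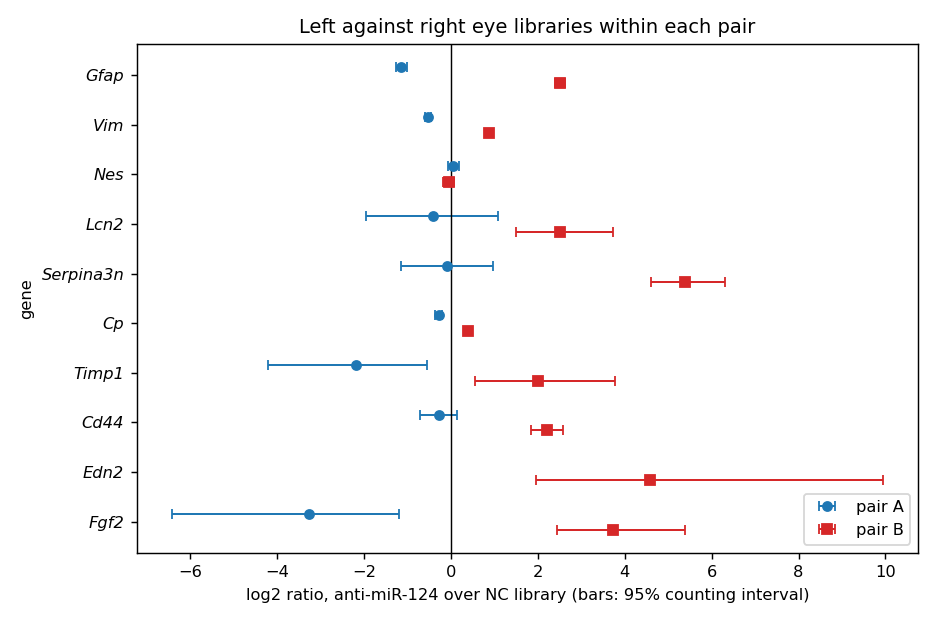
The log2 ratio of the anti-miR-124 to the NC library within pair A (blue circles) and pair B (red squares) for each gene, with 95% counting intervals as bars. The bar of Nes holds 0 in both pairs, and those of Lcn2, Serpina3n and Cd44 hold 0 in pair A. Edn2 has no value in pair A. The bars cover counting error only, and the share of all genes tested with bars off 0 was not computed.

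Over the 10 genes, no difference between the groups passed the test. In the edgeR fit none had an adjusted p under 0.05, and neither had any of the 17766 genes (0%). At an unadjusted p under 0.05 there was 1 of the 10 genes, Serpina3n, against 694 or 3.91% of all genes tested, and DESeq2's Wald test called 33 genes, none of them among the 10. In none of the 10 were both anti-miR-124 libraries above both NC libraries, where 16.5% of all genes tested were, or both below, where 16.8% were. Likewise, none was higher in the left eye in both pairs (22.8% of all genes tested) or lower in both (24%). Without NC-A, both anti-miR-124 libraries were above NC-B for 4 of the genes, Gfap, Vim, Serpina3n and Cd44, where 31.5% of all genes tested were so ordered. Without anti-B, anti-A was above both NC libraries for 1 gene, Nes, and for 33.2% of all genes tested. The median log2 fold change of the 9 genes tested was 0.92, beside 0.00066 over all genes tested. It was -0.24 without anti-B and 1.65 without NC-A.

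The within-pair ratios gave the larger differences. In pair A, 4 of the 10 genes (Gfap, Timp1, Edn2 and Fgf2) were at least 2-fold lower in the anti-miR-124 library, against 3.16% of all genes tested, and the median log2 ratio of the 9 genes tested was -0.41. Edn2 counts among them with 3 counts against none. In pair B, 7 of the 10 (Gfap, Lcn2, Serpina3n, Timp1, Cd44, Edn2 and Fgf2) were at least 2-fold higher, against 3.75% of all genes tested, and the median log2 ratio of the 9 was 2.21. Anti-B was at least 2-fold above each other library for 6 of the 10 genes, Gfap, Lcn2, Serpina3n, Cd44, Edn2 and Fgf2, against 1.19% of all genes tested. The order with this library highest and NC-A second was found in 9 of the 10, against 11.5%. These counts rest on 1 library against 1, and each pair has 1 library of each group, so the difference between the pairs could not be tested. The genes were chosen with earlier results of these libraries known.

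**Figure D3:**
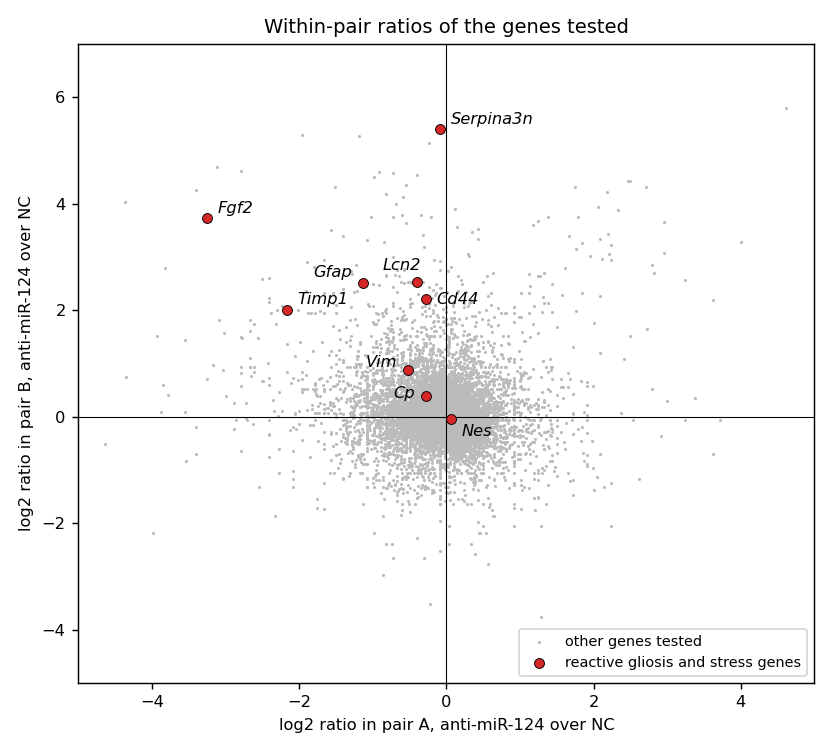
The log2 ratio of the anti-miR-124 to the NC library in pair A (x axis) and in pair B (y axis) for the genes tested (grey), with 9 of the 10 genes in red, as Edn2 did not pass the filter. Of the reactive gliosis and stress genes, 8 lie to the left of 0 and above 0 and Nes lies near the origin. The plot leaves out 23 genes beyond its axes and 12 with no count in 1 library of a pair.

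The order of the levels per length was not the same in every library. Vim was highest in every library, from 373 to 679 TPM. In NC-B it was followed by Cp with 87.1, Nes with 28.7 and Gfap with 28.5 TPM, of which the last 2 were close, and the other 6 genes were between 0.126 and 2.40 TPM. In anti-B, Gfap with 162 TPM was above Cp with 114 TPM, and Serpina3n with 47.9 TPM was above Nes with 27.7 TPM. Fgf2, Lcn2 and Cd44 followed with 12.6, 11.1 and 11.1 TPM. Vim and Cp, the genes with the highest mean levels, differed by less than 2-fold within either pair.

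Genes of the same pathways were then described by lists. No gene passed the filtered edgeR test, so the lists are given by their values. Of 6 other pan-reactive astrocyte genes, 4 were tested, and their median log2 ratio was -0.27 in pair A and 0.91 in pair B. Among them, Osmr, the oncostatin M receptor, had 73, 64, 59 and 155 counts in the order NC-A, anti-A, NC-B and anti-B, which is the order of Gfap. Steap4, a metalloreductase, had 0 counts in NC-A, 10 in anti-A, 1 in NC-B and 75 in anti-B, so that both anti-miR-124 libraries were above both NC libraries. Hspb1, a small heat shock protein, had 162 counts in NC-A, 67 in anti-A, 58 in NC-B and 51 in anti-B, and was highest in the NC library with the lens transcripts. The list was thus of mixed direction.

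Of the astrocyte genes named A1, which were first listed after inflammation, all 12 were tested. Their median log2 ratio was 0.03 in pair A and 1.32 in pair B, where 8 were at least 2-fold higher (3.75% of all genes tested). In 6 of them both anti-miR-124 libraries were above both NC libraries (16.5% of all genes tested). The 6 were H2-D1, Serping1, H2-T23, Psmb8, Gbp2 and Iigp1. Iigp1 had 0 counts in NC-A, 51 in anti-A, 3 in NC-B and 51 in anti-B, and Gbp2 had 7, 31, 5 and 80 in that order. Whether the 6 follow the interferon-stimulated genes described below was not tested. H2-D1, an MHC class I gene, had 373 counts in NC-A, 450 in anti-A, 440 in NC-B and 934 in anti-B. Serping1, the C1 inhibitor, had 94 counts in NC-A, 104 in anti-A, 82 in NC-B and 261 in anti-B. Amigo2, an adhesion protein, had 741 to 815 counts and Fkbp5, a cochaperone of steroid receptors, 774 to 958 counts, and neither was higher in pair B, with log2 ratios of -0.19 and -0.18. Of the genes named A2, first listed after ischemia, 8 of 12 were tested, and the medians were 0.09 in pair A and 0.07 in pair B. In that list Emp1, a membrane protein, had 378 counts in anti-B against 52 to 82 in the others, while S100a10, an annexin partner, had 200 to 256 counts.

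The other intermediate filament and linker genes, 10 of 10 tested, had medians of -0.07 in pair A and -0.10 in pair B. Nefl, the light neurofilament chain of neurons, had 4783 counts in NC-A, 7290 in anti-A, 6479 in NC-B and 4944 in anti-B. It was thus lowest in the 2 libraries in which Gfap and Vim were highest. Nefm and Ina, also filament genes of neurons, were lowest in these libraries as well, with 3694 and 2063 counts in NC-A and 3886 and 2571 counts in anti-B. Prph, of the same list, went the other way, with 12 counts in NC-A, 9 in anti-A, 6 in NC-B and 36 in anti-B. The share of all genes tested that were lowest in NC-A and anti-B was not computed. Lmnb1, a nuclear lamina gene, had 1831 to 2090 counts.

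The upstream signals had smaller median ratios than the 10 genes, a difference that was not tested. For the gp130 cytokines, receptors and STAT3 signaling, 11 of 15 genes were tested, with medians of -0.21 in pair A and 0.33 in pair B. Of the 11, 3 were at least 2-fold higher in pair B (3.75% of all genes tested), Il6ra, Socs3 and Osmr. Socs3 had 92 counts in NC-A, 42 in anti-A, 44 in NC-B and 152 in anti-B. Stat3, the transcription factor behind the gp130 receptors, had 1163 counts in NC-A, 1106 in anti-A, 1158 in NC-B and 2004 in anti-B, and its log2 ratio in pair B was 0.73. Lifr and Jak1, a receptor chain and its kinase, had log2 ratios of 0.01 and 0.01 in pair B. For the stress transcription factors, 11 of 12 were tested, with medians of -0.13 and 0.85. Of these 11, 3 were at least 2-fold higher in pair B (3.75% of all genes tested), Cebpd, Atf3 and Cebpb. Junb, an AP-1 subunit, had 157 counts in NC-A, 156 in anti-A, 144 in NC-B and 271 in anti-B, and Jun had 1836 to 2347 counts. Hmox1, the heme oxygenase, had 482 counts in NC-A against 108 to 182 in the other libraries.

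The partners of the ligands and of the matrix genes had median ratios of the same signs. In the list for Edn2 and Fgf2, 10 of 11 genes were tested, with medians of -0.17 in pair A and 0.20 in pair B. Ednrb, the receptor for endothelin 2 on Müller glia, had 308 counts in NC-A, 234 in anti-A, 216 in NC-B and 366 in anti-B, with log2 ratios of -0.48 and 0.70. The order of libraries was that of Gfap. Fgfr1, a receptor of Fgf2, had 475 counts in NC-A, 423 in anti-A, 447 in NC-B and 582 in anti-B, with log2 ratios of -0.25 and 0.32. In the list for Timp1 and Cd44, 11 of 13 genes were tested, with medians of -0.11 and 0.32. Spp1, which encodes osteopontin, a ligand of Cd44, had 591 counts in NC-A, 391 in anti-A, 860 in NC-B and 14386 in anti-B, a 16.02-fold difference in pair B. Mmp3 had no counts in any library. In the list of iron handling for Lcn2 and Cp, 9 of 10 genes were tested, with medians of -0.04 and 0.16, and the ferritin genes Fth1 and Ftl1 had log2 ratios of 0.22 and 0.40 in pair B.

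**Figure D4:**
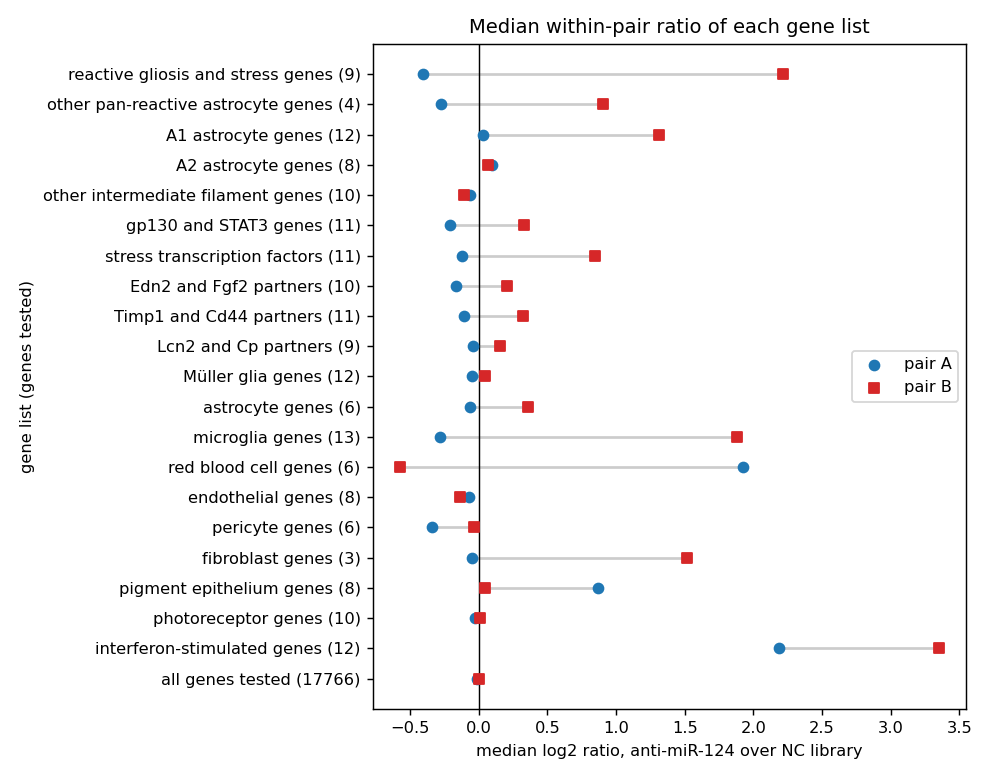
Median log2 ratio of the anti-miR-124 to the NC library in pair A (blue circles) and pair B (red squares) for each gene list with at least 3 genes tested, the number tested in brackets. The lens list, at -8.59 in pair A, is left out. The median runs from -0.41 to 2.21 for the 9 reactive gliosis and stress genes and from -0.28 to 1.88 for the microglia genes. The medians of photoreceptor and resting Müller glia genes lie near 0 in both pairs, though single genes of these lists differ.

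Markers of other cells moved with these results in some lists. The 13 microglia genes were all tested, and 11 of them were at least 2-fold higher in anti-B than in NC-B (3.75% of all genes tested). Their median log2 ratio was -0.28 in pair A and 1.88 in pair B. Their summed level was 170, 156, 128 and 437 TPM in the order NC-A, anti-A, NC-B and anti-B. No gene of the list was at 0 in all libraries. Without anti-B their median log2 fold change was -0.12. In bulk retina, a change in the number of cells of a type and a change in RNA per cell cannot be told apart. The part of microglia in the values of Cd44, Spp1 and the other genes was not tested.

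The 5 fibroblast genes, of which 3 were tested, also had their highest summed level, of 32.6 TPM, in anti-B, against 11.2 to 12.6 TPM. Most of it came from the collagen genes Col1a2, with 21.5 TPM, and Col1a1, with 6.53 TPM. Col3a1 had 3.89 TPM in anti-B and 3.11 TPM in NC-B, and Dcn had 7 counts in anti-B and 10 in anti-A. Of 6 astrocyte genes, all tested, the medians were -0.06 in pair A and 0.36 in pair B. Gja1, the gap junction gene of astrocytes and Müller glia, had 546 counts in NC-A, 333 in anti-A, 230 in NC-B and 766 in anti-B, the order of Gfap, while Slc1a2, a glutamate transporter gene, had 7538 to 8388 counts. Of the 12 genes of resting Müller glia none was at least 2-fold higher in pair B (3.75% of all genes tested), and the medians were -0.05 and 0.04. Rlbp1, a retinoid carrier of Müller glia, had 4680 to 5224 counts, and Apoe, which microglia also express, was 1.91-fold higher in pair B. The 10 photoreceptor genes had medians of -0.02 and 0.01. In both pairs 3 of them were higher (22.8% of all genes tested) and 4 lower (24% of all genes tested). Both anti-miR-124 libraries were above both NC libraries for 2 of them (16.5% of all genes tested) and below both for 4 (16.8%). The 8 endothelial genes had medians of -0.07 and -0.14, the 6 pericyte genes of -0.34 and -0.04, the 6 red blood cell genes of 1.92 and -0.57 and the 8 pigment epithelium genes tested of 0.87 and 0.05. Of 6 corneal and surface epithelium genes only Krt15 was tested, with 19 to 28 counts.

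The lens transcripts were in NC-A, which was second highest for each of the 10 genes, after anti-A for Nes and after anti-B for the other 9. The ratio of the NC libraries, pair A over pair B, was 4.04 for Fgf2 (95% counting interval 1.44 to 13.9). For Timp1 it was 3.81 (1.35 to 13.2). The interval lay above 1 for 7 of the 10 genes. It covers counting error only, so it can lie above 1 for a small difference in a gene with many counts. The share of all genes tested with such an interval was not computed, nor the share with NC-A second highest. The part of lens or other attached tissue in the values of the 10 genes was not tested. With the lens genes taken out before normalization, the median log2 fold change of the 9 genes tested was 0.93, near the 0.92 with them. Any reads of lens tissue on the 10 genes stay in their counts in that fit. It thus cannot show the part of lens tissue in these values. The ratio of anti-A to NC-B, across the pairs, was between 0.423 for Fgf2 and 1.38 for Serpina3n in the 9 genes that have one, and it was 1.21 for Gfap (1.08 to 1.35).

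Interferon-stimulated genes had another pattern. Of 12 genes, 11 were higher in both anti-miR-124 libraries than in both NC libraries, against 16.5% of all genes tested, and their median log2 ratio was 2.18 in pair A and 3.35 in pair B. Without anti-B their median log2 fold change was 2.27, while that of the 9 reactive gliosis and stress genes was -0.24. The difference between the lists was not tested.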

How the data were processed

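RNA-Seq was done on mouse retina with a directional kit from total RNA, with 2 libraries in each of the anti-miR-124 and NC groups. The authors deposited counts of reads per gene, without normalization, with gene lengths and positions. The submitters' processing notes name HISAT2 and mm9, and the counting tool and its strand setting are not given in the sources used here. The positions are those of GRCm38, since 99.8% of 36837 symbols matched to RefSeq overlapped in position, and 7 of the 10 genes had both ends equal. Another 4 columns of RPKM were not used. The libraries held 16317239 to 18726963 counts, and none was a duplicate of another (lowest chi-square per degree of freedom 3.44).

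Columns were assigned to groups by the eye named in them. The 10 genes, the 23 other lists and the tests were chosen with earlier results of these data known. Genes were tested with the quasi-likelihood test of edgeR 4.0.16 in R 4.3.3, with TMM, its filter on low counts, no covariate, both directions and Benjamini-Hochberg adjustment over all genes tested, with a threshold of 0.05. It was tested on simulated data first. Within-pair ratios are of TMM-scaled counts with exact 95% intervals of the counts. DESeq2 1.42.0, other scalings and filters, a replicate block and leaving out each library were alternatives. Named were all 10 genes, up to 4 genes of each list with the highest mean TPM, genes at the ends of a range, and the 5 genes outside the lists (mean TPM of at least 1) nearest in centred log2 CPM (0.1 added) to the mean of the genes tested. Also named were the neutrophil genes, and the A1 genes with both anti-miR-124 libraries above both NC libraries. Prph and the upstream signal genes at least 2-fold higher in pair B were named too. The lens and Serpina3 genes are given by sums or ends only. Python 3.11.15 was used for the other steps. Promoters came from RefSeq. These libraries do not measure mature miR-124-3p. The values of some single genes of the lists are not reported here.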

Additional observations from a re-analysis of the deposited data

How the results depend on the processing

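The number of the 10 genes with an adjusted p under 0.05 was 0 in edgeR's quasi-likelihood test with TMM, with DESeq2's size factors, upper quartile scaling or total counts, with a minimum mean of 10 counts, without the lens genes, and in DESeq2's Wald test. Without the filter on low counts it was 4 (Gfap, Serpina3n, Cd44 and Lcn2), and the number over all genes moved from 0 to 379, with 33 in DESeq2's Wald test. The cause was not tested. With the replicate block it was 0 over all genes, with 376 genes at an unadjusted p under 0.05, and the median log2 fold change of the genes was 0.70. The deviations of same-numbered libraries had a correlation of -0.16 over genes, so it did not show pairing. With 2 libraries in each group, it cannot decide whether the numbers mark eyes of the same mice. With the numbers crossed, chosen after seeing the data, 160 genes and 3 of the 10 (Gfap, Serpina3n and Cd44) were called, and the log2 fold change of Timp1 was -0.0080. Leaving out each library in turn gave 0 to 256 genes, and 0 to 3 of the 10, with 3 (Serpina3n, Cd44 and Lcn2) and 256 without anti-A, 57 genes without NC-B, 12 without anti-B and 0 without NC-A. The number of the 10 genes higher in every anti-miR-124 than NC library, 0 over all libraries, was 1 without anti-B and 4 without NC-A, alternatives also chosen after seeing the data. The median log2 fold change ranged from -0.24 to 1.77, and those of single genes from -0.59 to 1.79 for Gfap, -0.24 to 0.54 for Vim, -0.12 to 0.13 for Nes, -0.24 to 2.35 for Lcn2, -0.19 to 0.29 for Cp, -1.45 to 1.28 for Timp1, -0.0066 to 1.89 for Cd44, -2.47 to 2.76 for Fgf2 and 0.18 to 5.10 for Serpina3n. A lone library was assumed to vary like the other group. By TPM in place of TMM-scaled counts, the log2 ratio in pair A was -0.42 for Vim and -0.18 for Cp, and the other ratios moved by less than their counting intervals. Edn2, Timp1, Fgf2 and Lcn2 had under 100 counts in every library, so that counting error limits their ratios.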

Other observations

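Outside the gene lists, the 5 genes with the profile nearest to the mean of the reactive gliosis and stress genes over the 4 libraries, by Euclidean distance of centred log2 CPM, were Apobec1 (distance 0.18), Inpp5d (0.26), Ptafr (0.26), Tbxas1 (0.26) and Gm21975 (0.27). Apobec1, an RNA-editing cytidine deaminase, had 44 counts in NC-A, 31 in anti-A, 33 in NC-B and 137 in anti-B. Inpp5d, an inositol phosphatase of blood-derived cells, had 81 counts in NC-A, 56 in anti-A, 55 in NC-B and 203 in anti-B. Ptafr, the receptor of platelet-activating factor, had 15 counts in NC-A, 10 in anti-A, 11 in NC-B and 58 in anti-B. Tbxas1, the thromboxane synthase, had 18 counts in NC-A, 10 in anti-A, 13 in NC-B and 48 in anti-B. Gm21975 had 18 counts in NC-A, 8 in anti-A, 10 in NC-B and 53 in anti-B. All 5 were highest in anti-B and second in NC-A, which is the order the choice asked for. Among the genes themselves, Cd44 (0.36) and Gfap (0.47) were nearest to their mean profile, and Serpina3n (2.75) was farthest from it.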
